A study of Mus musculus with 12 samples.

Results

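The genes described here are 5 secretory products of Paneth cells other than the defensins: Lyz1, Mmp7, Ang4, Itln1 and Mptx2. They were named by symbol and matched in the count files, where all 5 were found among 35791 genes, and all 5 passed the filter on low counts. RNA came from the small bowel of male C57BL/6 mice aged 8 to 10 weeks at operation, in 12 libraries of 4 groups with 3 libraries each. Pre control and Pre 2'-FL are labelled as bowel taken before ileocecal resection, the removal of the end of the ileum with the cecum, and Post control and Post 2'-FL as bowel taken 8 weeks after it. 2'-FL (2'-fucosyllactose) is a fucosylated milk sugar, offered at 2.5 g/L to the 2'-FL arm. Its supply started on day 0, when the mice were resected, so that Pre 2'-FL names an arm whose supplement had not begun before resection. The labels say that every mouse was resected and had a liquid diet around day 7, and place all collections at 8 weeks after resection, against the labels of the 6 Pre libraries. Groups follow each library's own label here. Bowel segment, pooling of mice and links between libraries of equal number are not given in the labels, so resection cannot be told apart from segment, age or diet.

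Paneth cells sit at the base of small intestinal crypts beside the stem cells, and release granules of antimicrobial proteins into the crypt lumen. They also supply the stem cells with Wnt, Notch and EGF family signals. Lyz1 encodes the Paneth cell lysozyme, which cuts the bacterial cell wall. Mmp7 encodes matrilysin, the metalloproteinase that cleaves alpha-defensin precursors to their active form in mice. Ang4 encodes angiogenin 4, a ribonuclease family protein with microbicidal activity. Itln1 encodes intelectin 1, a lectin that binds microbial glycans and is also made by goblet cells. Mptx2 encodes mucosal pentraxin 2, a secreted member of the pentraxin family. The Paneth cell label was borne out by other markers of these cells: all 13 alpha-defensin genes on the marker list passed the filter and summed to between 6670 and 50100 CPM (counts scaled to a common library total, with TMM factors) in a library. Enterocyte markers summed to between 14300 and 60800 CPM. Of 6 acinar pancreas genes, Cpa1, Pnlip and Amy2a1 had 0 counts in every library, Prss2 and Ctrb1 reached at most 0.189 CPM, and Cela1 stood at 4.84 to 23.1 CPM. Cela1, an elastase gene, was called higher in Post in the control arm (1.04 log2 units, adjusted p = 0.0363, edgeR) and in the 2'-FL arm (1.90, adjusted p = 0.000145), and its part in the results for the 5 genes was not tested.

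The upstream sequences of the 5 genes are shown because 4 of the 5 moved together in the control arm, and so that their starts can be compared. Each run holds 250 bases before and 30 bases after a RefSeq transcription start, 5′ to 3′ on the gene's own strand, in build GRCm38.p6. Capitals mark matches, on either strand, to ATCAAAG (a TCF/LEF motif), TTTATNG (a CDX motif) or CAGCTG (an E-box of the kind that Atoh1 binds), and no marked matches overlapped.
Lyz1 (chr10:117292839-117293118, minus strand): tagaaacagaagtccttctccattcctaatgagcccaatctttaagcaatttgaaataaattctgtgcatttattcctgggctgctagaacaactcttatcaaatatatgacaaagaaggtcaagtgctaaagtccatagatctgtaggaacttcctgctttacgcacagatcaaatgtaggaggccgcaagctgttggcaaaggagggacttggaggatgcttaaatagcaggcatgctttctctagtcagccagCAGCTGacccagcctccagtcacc
Mmp7 (chr9:7691840-7692119, plus strand): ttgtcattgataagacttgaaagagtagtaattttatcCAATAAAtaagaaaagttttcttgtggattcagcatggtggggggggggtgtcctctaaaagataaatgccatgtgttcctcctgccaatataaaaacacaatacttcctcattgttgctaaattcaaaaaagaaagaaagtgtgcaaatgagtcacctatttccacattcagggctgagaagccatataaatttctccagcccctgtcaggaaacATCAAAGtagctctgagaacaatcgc
Ang4 (chr14:51773561-51773840, minus strand): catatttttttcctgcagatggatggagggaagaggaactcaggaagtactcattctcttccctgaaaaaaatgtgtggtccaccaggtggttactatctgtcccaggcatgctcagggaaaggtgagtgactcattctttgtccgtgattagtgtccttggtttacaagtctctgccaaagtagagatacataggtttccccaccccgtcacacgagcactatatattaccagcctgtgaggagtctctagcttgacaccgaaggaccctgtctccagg
Itln1 (chr1:171535265-171535544, minus strand): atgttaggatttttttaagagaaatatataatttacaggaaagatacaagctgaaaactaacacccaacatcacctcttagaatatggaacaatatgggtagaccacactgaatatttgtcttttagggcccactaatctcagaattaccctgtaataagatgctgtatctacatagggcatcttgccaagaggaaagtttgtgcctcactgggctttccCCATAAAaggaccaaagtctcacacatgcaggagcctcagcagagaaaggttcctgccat
Mptx2 (chr1:173277727-173278006, minus strand): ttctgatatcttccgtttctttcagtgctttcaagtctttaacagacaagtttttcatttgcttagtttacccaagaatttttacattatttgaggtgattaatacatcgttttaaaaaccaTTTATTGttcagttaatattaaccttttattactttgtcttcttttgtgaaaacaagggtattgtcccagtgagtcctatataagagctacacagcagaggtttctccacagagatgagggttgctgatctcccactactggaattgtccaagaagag
The TCF/LEF motif was found in 1 of 5 windows, at base 5 after the Mmp7 start, and in 3.56% of 32851 windows of all genes. The CDX motif was found in 3 of 5 windows, beginning at base -212 in Mmp7, -30 in Itln1 and -128 in Mptx2, and in 10.5% of all windows. The E-box was found at base 7 after the Lyz1 start and in 14.9% of all windows. The Ang4 window held none of the 3 motifs, which says only that these letters are not in it. For Mmp7 the first of 2 listed starts was used, and the Itln1 start lies 31 bases inside the outer end of the gene in the RefSeq table.

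The genes lie on 4 chromosomes, with Itln1 and Mptx2 both on chromosome 1. In the RefSeq table of the same build Lyz1 (Entrez 17110) spans chromosome 10 from 117287795 to 117292868, Mmp7 (17393) chromosome 9 from 7692090 to 7699585, and Ang4 (219033) chromosome 14 from 51763892 to 51773590. Itln1 (16429) spans chromosome 1 from 171518123 to 171535325, and Mptx2 (100504232) from 173274461 to 173277756. Their transcripts are short, at 1263 nt for Lyz1, 1141 for Itln1, 1068 for Mmp7, 794 for Mptx2 and 709 for Ang4. Only 10.2% of the 12654 tested genes with a known transcript length have one no longer than that of Lyz1.

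Compared per length, Lyz1 was the highest of the 5 in all 12 libraries and Itln1 the next. In Pre control the levels per kb of transcript were 7720 ± 2250 CPM for Lyz1 (SD, n = 3), 2490 ± 592 for Itln1, 1040 ± 348 for Ang4, 382 ± 80.2 for Mptx2 and 184 ± 70.9 for Mmp7. Within single Pre libraries Lyz1 was 2.72 to 3.26 times Itln1 per kb, and Ang4 was 1.84 to 3.20 times Mptx2, in 6 of 6 libraries. In Post control the levels per kb were 2070 ± 437 CPM for Lyz1, 721 ± 157 for Itln1, 356 ± 183 for Mptx2, 216 ± 23.2 for Ang4 and 49.0 ± 10.5 for Mmp7. The order of Ang4 and Mptx2 thus turned: Ang4 was above Mptx2 in 1 of 6 Post libraries, Post control 3, and the means of this pair in Post control lay within the spread of Mptx2. In Post 2'-FL the levels per kb were 6320 ± 3370 CPM for Lyz1, 1700 ± 586 for Itln1, 1100 ± 604 for Mptx2, 473 ± 264 for Ang4 and 205 ± 111 for Mmp7. Itln1 was above Mptx2 in 3 of 3 Post 2'-FL libraries, at 2360, 1490 and 1250 CPM per kb against 1800, 745 and 764. In Pre 2'-FL they were 8160 ± 4040, 2870 ± 1510, 1050 ± 551, 454 ± 293 and 207 ± 104 CPM for Lyz1, Itln1, Ang4, Mptx2 and Mmp7, with the order of Pre control. Together the 5 genes took between 0.331% (Post control 3) and 2.21% (Pre 2'-FL 2) of all counts of a library, most of it from Lyz1.

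**Figure D1:**
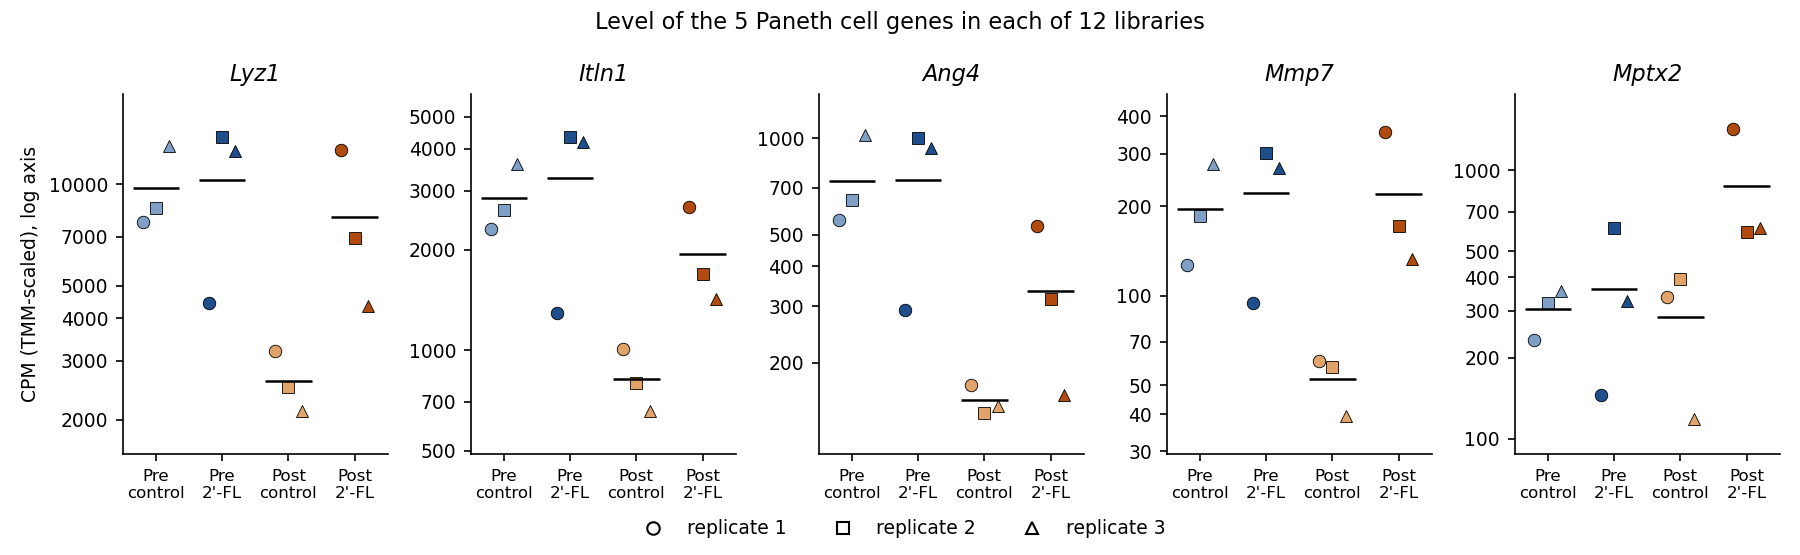
Level of each gene in each library in TMM-scaled CPM on log axes, by group, with 1 symbol per replicate number and a line at the group mean. The 3 Post control libraries lie below all Pre control libraries for Lyz1, Itln1, Ang4 and Mmp7 but not for Mptx2, and Pre 2'-FL 1 is the lowest Pre library for all 5 genes.

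Depth was 5663275 to 9385266 counts per library, so that the least abundant level, 39.5 CPM of Mmp7, still rested on 394 counts. Libraries of a group differed in more than counting noise, and none were identical. In 2 groups 1 library stood apart, by the chi-square per gene between pairs of libraries. Pre control 3 had 76.6 and 83.3 to the other two of its group, which had 14.4 between them, and was the highest of that group for all 5 genes. Pre 2'-FL 1 had 85.2 and 90.0, against 14.3, and was the lowest of its group for all 5 genes. Levels also followed transcript length, and in different ways between groups. Over all genes Spearman's rho between length and the level relative to the gene's mean lay between 0.26 and 0.50 in the Pre libraries. It was -0.03, -0.21 and 0.35 in the 3 Post control libraries, whereas the 3 with 2'-FL had -0.44, -0.56 and -0.60 (across genes, which are not independent replicates). For the 5 short transcripts, the part of the log2 level fitted by length and GC content ran from -0.64 to -0.12 in the Pre libraries, from -0.54 to 0.04 in Post control and from 0.41 to 1.77 in Post 2'-FL. Each change is therefore given as counted and again with this part removed ("corrected"). What gave rise to the length trend was not tested.

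**Figure D2:**
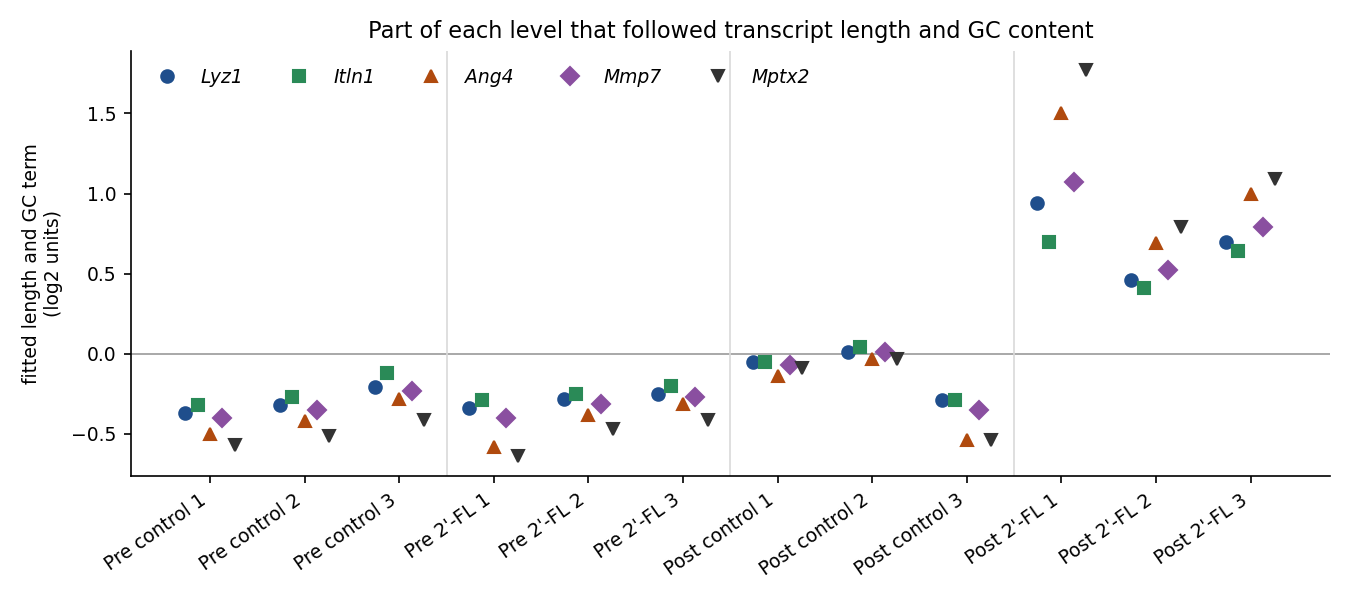
The part of each gene's log2 level, relative to its mean over libraries, that a curve on transcript length and GC content fitted in each library. The terms lie at or below 0.04 in all Pre and Post control libraries and between 0.41 and 1.77 in Post 2'-FL, highest for Mptx2 and Ang4, the shortest transcripts.

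In mice without the supplement, Post control was set against Pre control. Lyz1, Mmp7, Ang4 and Itln1 fell, by 3.46-fold (Itln1) to 4.82-fold (Ang4), and Mptx2 showed no called change. These 4 of 5 genes were called lower (adjusted p under 0.05, edgeR's quasi-likelihood test with Benjamini-Hochberg adjustment over all genes), where 6.33% of all genes tested were; corrected, the same 4 were called lower, where 5% of all genes were. The median log2 change of the 5 was -1.90, against -0.05 over all genes. In whole bowel, fewer Paneth cells and less RNA per Paneth cell cannot be told apart. Age, segment and diet move with the comparison as given above.

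Lyz1 stood at 7730, 8520 and 13000 CPM in Pre control and at 3210, 2500 and 2130 CPM in Post control. The groups did not overlap, and the highest Post control library lay well under the lowest Pre control library. The log2 change was -1.90 ± 0.46 (SE, adjusted p = 0.0216), or 3.73-fold lower, and -2.08 ± 0.42 corrected (adjusted p = 0.00913).

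Mmp7, the defensin-processing enzyme, stood at 127, 185 and 277 CPM in Pre control and at 60.2, 57.4 and 39.5 CPM in Post control, again without overlap. This was a log2 change of -1.91 ± 0.44 (adjusted p = 0.0182), 3.76-fold lower, and of -2.09 ± 0.38 corrected (adjusted p = 0.00584). The genes of its substrates fell too: 13 of 13 alpha-defensin genes tested were called lower in this arm (12 corrected). Of all genes 6.33% were (5% corrected). The median log2 change of the 13 was -1.95, against -0.05 over all genes. The 13 are not separate observations. Defa-rs7 and Defa23 had equal rounded levels in every library, and those of Defa21 and Defa22 were close. How reads were divided among these genes was not tested.

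Ang4, the ribonuclease, had the largest fall of the 5 as fitted, from 555, 640 and 1020 CPM in Pre control to 171, 140 and 147 CPM in Post control. The 3 Post control values lay close together and far under the lowest Pre control value. The log2 change was -2.27 ± 0.46 (adjusted p = 0.0107), 4.82-fold lower, and -2.40 ± 0.40 corrected (adjusted p = 0.00401).

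Itln1, the lectin, stood at 2310, 2620 and 3610 CPM in Pre control and at 1010, 796 and 658 CPM in Post control. Its groups did not overlap. Its fitted log2 change was -1.79 ± 0.41 (adjusted p = 0.0171), 3.46-fold lower, and -1.92 ± 0.38 corrected (adjusted p = 0.00819). Groups without overlap and lower in Post were thus found for 4 of 5 genes, against 17.6% of all genes.

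Mptx2, the pentraxin, did not share this pattern. It stood at 233, 321 and 356 CPM in Pre control and at 336, 394 and 118 CPM in Post control. Post control 1 lay inside the Pre control range, Post control 2 above it and Post control 3 below it. The log2 change was -0.10 ± 0.50 (adjusted p = 0.907) and -0.46 ± 0.39 corrected (adjusted p = 0.437). As counted, the 4 calls in this arm depended on single libraries: leaving out Pre control 3 or Post control 1 kept 1 of the 4, leaving out Post control 3 kept 3, and leaving out Post control 2 kept 0. Corrected, 4 were called whichever of the 6 libraries was left out.

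**Figure D3:**
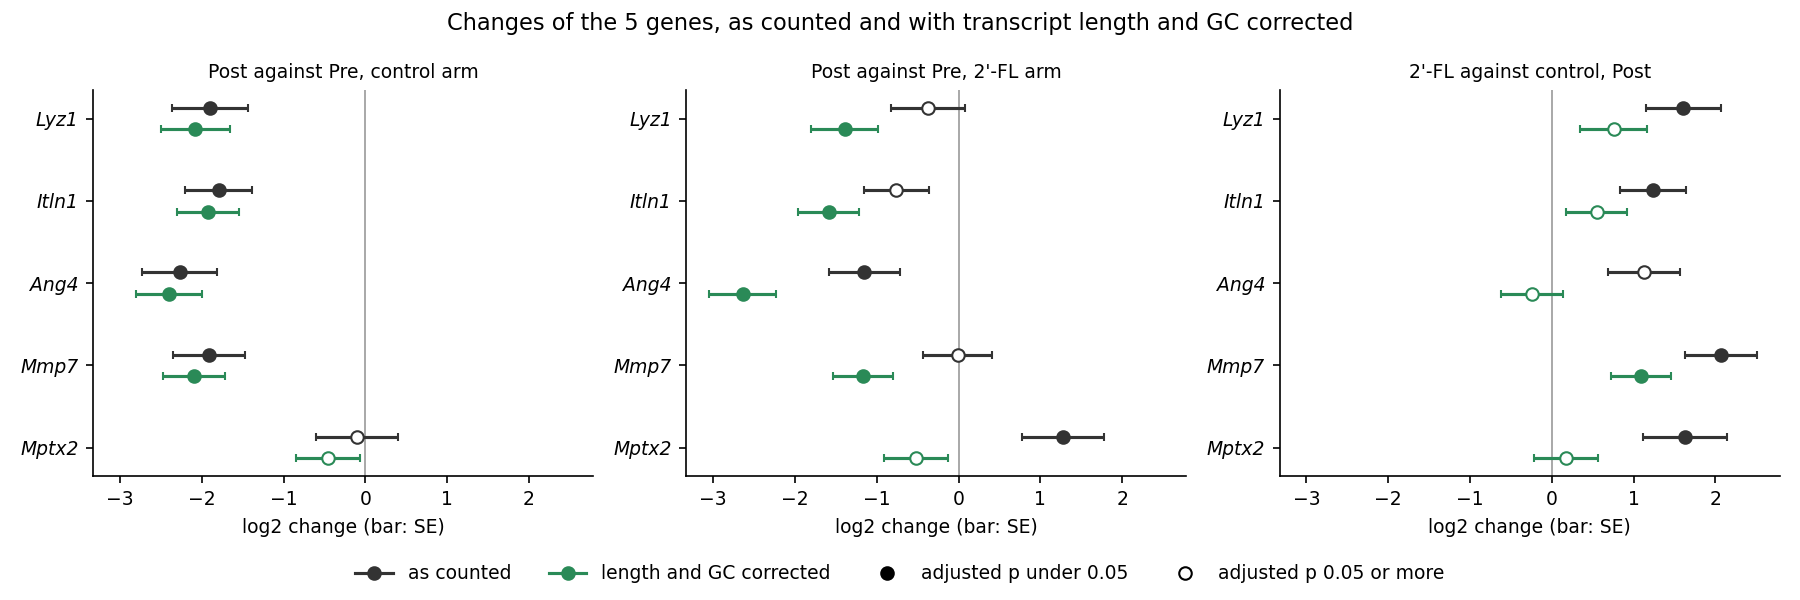
Log2 change of each gene (points, with SE as bars) in the control arm, in the 2'-FL arm and between the Post groups, as counted in black and corrected for length and GC in green, filled where the adjusted p is under 0.05. Every corrected value is lower than the value as counted in each comparison. In the control arm the pairs of points lie close together, whereas in both comparisons that use Post 2'-FL they lie farther apart. Mptx2 in the 2'-FL arm moves from 1.28 to -0.52.

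With the supplement, Post 2'-FL was set against Pre 2'-FL. As counted, Ang4 fell and Mptx2 rose, while Lyz1, Mmp7 and Itln1 had no called change. That is 1 gene lower, where 30% of all genes were, and 1 higher, where 25.3% of all genes were. Corrected, Lyz1, Mmp7, Ang4 and Itln1 were called lower, where 14.8% of all genes were, and Mptx2 was not called. What is counted as a fall or a rise in this arm therefore turns on the treatment of transcript length.

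Lyz1 stood at 4450, 13800 and 12600 CPM in Pre 2'-FL and at 12700, 6930 and 4350 CPM in Post 2'-FL. The ranges were nearly the same, with Pre 2'-FL 1 as low as the lowest Post library and Post 2'-FL 1 as high as the others of Pre. The log2 change was -0.37 ± 0.45 (adjusted p = 0.500) and -1.39 ± 0.41 corrected (adjusted p = 0.0180).

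Mmp7 stood at 94.4, 302 and 268 CPM in Pre 2'-FL and at 354, 171 and 133 CPM in Post 2'-FL. Its highest library was a Post one. The log2 change of -0.01 ± 0.42 (adjusted p = 0.980) became -1.17 ± 0.37 corrected (adjusted p = 0.0234).

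Ang4 stood at 292, 999 and 934 CPM in Pre 2'-FL and at 532, 315 and 159 CPM in Post 2'-FL. Pre 2'-FL 1 lay inside the Post range, and the other two Pre libraries above it. Ang4 changed by -1.15 ± 0.44 log2 units (adjusted p = 0.0397) and by -2.64 ± 0.41 corrected (adjusted p = 0.000407). The call as counted was lost without Pre 2'-FL 2 or 3 or without Post 2'-FL 2 or 3 (adjusted p from 0.0901 to 0.181).

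Itln1 stood at 1290, 4340 and 4200 CPM in Pre 2'-FL and at 2690, 1690 and 1420 CPM in Post 2'-FL. All 3 Post values lay between Pre 2'-FL 1 and the other two Pre libraries. The log2 change was -0.76 ± 0.40 (adjusted p = 0.118) and -1.59 ± 0.37 corrected (adjusted p = 0.00538), and as counted it was called without Pre 2'-FL 1, at -1.07 (adjusted p = 0.0109).

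Mptx2 stood at 146, 608 and 327 CPM in Pre 2'-FL and at 1430, 591 and 607 CPM in Post 2'-FL. Post 2'-FL 1 was the highest of all 12 libraries, and the other two Post values lay just under Pre 2'-FL 2. The fitted log2 change was 1.28 ± 0.50 (adjusted p = 0.0428) as counted and turned to -0.52 ± 0.39 corrected (adjusted p = 0.311). As counted, the call was lost without Pre 2'-FL 1 or 3 or without Post 2'-FL 1 (adjusted p from 0.106 to 0.249), and also with library totals, upper quartiles or epithelial genes as the scale (adjusted p from 0.0543 to 0.111). Of the 4 corrected calls in this arm 2 were left, those of Ang4 and Itln1, when Post 2'-FL 3 or either of the higher Pre libraries (2 and 3) was left out, and 3 when Post 2'-FL 2 was.

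Over both arms together, 4 of 5 genes were called lower after resection both as counted, where 31.1% of all genes were, and corrected, where 18.5% were. Ang4 changed by -1.71 ± 0.32 log2 units (adjusted p = 0.000542), Itln1 by -1.28 ± 0.28 (adjusted p = 0.00184), Lyz1 by -1.13 ± 0.32 (adjusted p = 0.00794) and Mmp7 by -0.96 ± 0.30 (adjusted p = 0.0146). Ang4 thus had the lowest estimate in both arms and over both. Mptx2 changed by 0.59 ± 0.35 (adjusted p = 0.165) as counted and by -0.49 ± 0.28 corrected (adjusted p = 0.164). Without Pre 2'-FL 2 the call of Mmp7 as counted was lost (adjusted p = 0.0515) and Mptx2 was called higher, at 0.94 (adjusted p = 0.0335), whereas corrected and without Pre 2'-FL 1 Mptx2 was called lower, at -0.66 (adjusted p = 0.0338).

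Ratios between the genes within 1 library do not depend on how libraries are scaled, and they separated Mptx2 from the other 4. As a share of Lyz1 counts, Mptx2 counts were 0.0301, 0.0377 and 0.0274 in the Pre control libraries and 0.0328, 0.0439 and 0.0259 in those of Pre 2'-FL. After resection the shares were 0.105, 0.157 and 0.0557 without the supplement and 0.113, 0.0853 and 0.140 with it. All 6 Post libraries lay above all 6 Pre libraries, and within each arm the 3 Post libraries lay above the 3 Pre libraries.

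The same held for Mptx2 against each of the other genes. Its ratio to Ang4 was 0.350 to 0.608 in Pre and 0.805 to 3.81 in Post, to Itln1 0.0780 to 0.140 in Pre and 0.180 to 0.532 in Post, and to Mmp7 1.22 to 2.01 in Pre and 3.00 to 6.86 in Post. In log2 units, Post lay above Pre by 1.67 for the ratio to Lyz1, 1.48 to Mmp7, 2.24 to Ang4 and 1.77 to Itln1. Corrected, the differences were 1.27, 1.13, 2.06 and 1.25. Each of the 4 had p = 0.00216 in a two-sided exact permutation test of 6 against 6 libraries, as counted and corrected, which is the smallest p this design gives, and 0.00541 after adjustment over the 10 pairs of genes. The 4 ratios share Mptx2, and the other 4 genes were correlated with each other, so these are not 4 independent tests. These pairs were examined after the levels had been seen. Post control 3 had the lowest of the Post ratios in all 4 cases. The difference was largest relative to Ang4, at 4.72-fold as counted.

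**Figure D4:**
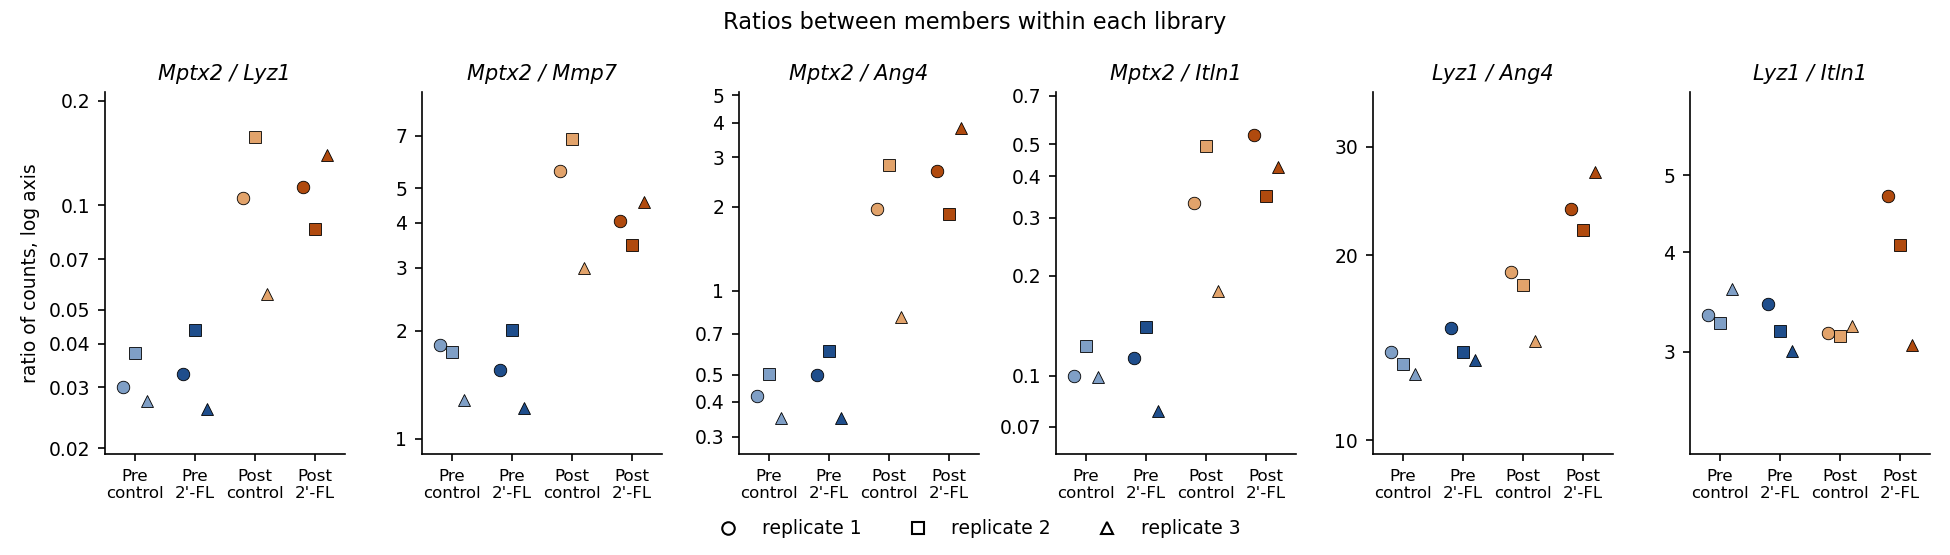
Ratio of counts of pairs of the genes within each library, on log axes, by group, with 1 symbol per replicate number. In the 4 panels of Mptx2 every Post library lies above every Pre library, with Post control 3 the lowest of the Post libraries, while the ratio of Lyz1 to Itln1 ranges from 3.01 to 3.60 in Pre and from 3.06 to 4.71 in Post.

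Among the other 4 genes, the 3 ratios with Ang4 passed the test of Post against Pre. Lyz1 counts were 12.8 to 15.2 times those of Ang4 in Pre. The factors were 18.8, 17.9 and 14.5 after resection without the supplement and 23.8, 22.0 and 27.3 with it. Post control 3 lay inside the Pre range and the other 5 Post libraries above it. The difference was 0.56 log2 units (adjusted p = 0.00722, same exact permutation test) and 0.79 corrected (adjusted p = 0.0253). Ang4 fell relative to Itln1 by 0.47 log2 units (adjusted p = 0.00722, exact permutation test) and by 0.81 corrected (adjusted p = 0.0130). Mmp7 rose relative to Ang4 by 0.76 (adjusted p = 0.0216, exact permutation test) and by 0.93 corrected (adjusted p = 0.0309).

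The 3 ratios among Lyz1, Mmp7 and Itln1 passed no test. Post differed from Pre by -0.20 log2 units for Lyz1 to Mmp7 (adjusted p = 0.219, exact permutation test), by 0.09 for Lyz1 to Itln1 (adjusted p = 0.457) and by 0.29 for Mmp7 to Itln1 (adjusted p = 0.219). The test pools the arms, and as counted they did not look alike for Mmp7. Lyz1 was 45.9 to 60.9 times Mmp7 in Pre and 53.3, 43.6 and 53.8 times in Post control, but 35.8, 40.5 and 32.7 times in Post 2'-FL, under every Pre library. Mmp7 was 0.0548 to 0.0769 times Itln1 in Pre and 0.0595, 0.0721 and 0.0600 times in Post control, but 0.131, 0.101 and 0.0935 times in Post 2'-FL, above every Pre library. These arm values were picked out after they had been seen and were not tested by arm. Over the 12 libraries, which share depth, length trend and group differences, Pearson's r of log2 CPM lay between 0.86 and 0.98 for the 6 pairs among Lyz1, Mmp7, Ang4 and Itln1, and between 0.24 and 0.64 for the 4 pairs with Mptx2. Corrected, these ranges were 0.86 to 0.99 and 0.54 to 0.72.

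Post 2'-FL against Post control asks whether the supplement changed the bowel after resection. As counted, Lyz1, Mmp7, Itln1 and Mptx2 were higher with 2'-FL, 4 of 5 genes, where 18.8% of all genes were called higher. Corrected, Mmp7 alone was called, where 10.3% of all genes were. The library values are those given above. The lowest Post 2'-FL library exceeded the highest Post control library for these 4 genes, which was so for 25.2% of all genes.

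Mmp7 had the highest estimate, a log2 difference of 2.07 ± 0.44 (adjusted p = 0.00285) and 1.09 ± 0.37 corrected (adjusted p = 0.0481). The corrected call was kept without Post 2'-FL 3 (1.34, adjusted p = 0.0376) and lost when any other single library of these groups was left out (0.79 to 1.18, adjusted p from 0.0672 to 0.225). Lyz1 differed by 1.61 ± 0.46 (adjusted p = 0.0133) and 0.76 ± 0.41 corrected (adjusted p = 0.187). Mptx2 differed by 1.63 ± 0.51 (adjusted p = 0.0213) and 0.17 ± 0.39 corrected (adjusted p = 0.784). Itln1 differed by 1.24 ± 0.40 (adjusted p = 0.0255) and 0.55 ± 0.37 corrected (adjusted p = 0.295). These 3 calls as counted were each lost without Post control 3 or without Post 2'-FL 1, and that of Itln1 also without Post control 2 and with library totals as the scale (adjusted p = 0.0517).

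Ang4 overlapped between the Post groups, with Post 2'-FL 3 at 159 CPM inside the Post control range of 140 to 171 CPM. Its log2 difference was 1.13 ± 0.44 (adjusted p = 0.0569) and -0.24 ± 0.38 corrected (adjusted p = 0.685). Within Post 2'-FL, replicate 1 was the highest library for all 5 genes, and it also had the highest length and GC term for each. The part of the length trend in the differences as counted cannot be told apart from the group, since no Post control library had a like trend.

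Before resection the 2 arms did not separate. None of the 5 genes was called between Pre 2'-FL and Pre control, where 0% of all genes were called higher and 0.0152%, or 2 genes, lower, and 0 of the 5 had an unadjusted p under 0.05 in edgeR. The estimates ran from 0.01 ± 0.44 log2 units for Ang4 to 0.25 ± 0.50 for Mptx2. Every one changed sign with some library left out, since Pre 2'-FL 1 was low and the other two libraries of the arm high.

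Whether the 2 arms changed differently was tested by the interaction term, positive where the 2'-FL arm changed more upward. It was called for Mmp7 alone as counted, at 1.89 ± 0.60 log2 units (adjusted p = 0.0477), where 7.47% of all genes were called higher. Corrected it was 0.92 ± 0.51 (adjusted p = 0.330), and 0% of all genes were called. As counted the estimates for Lyz1, Mptx2, Ang4 and Itln1 were 1.53 ± 0.63, 1.39 ± 0.71, 1.13 ± 0.62 and 1.03 ± 0.56 (adjusted p from 0.111 to 0.222). Corrected, they were 0.70, -0.06, -0.24 and 0.34. A difference between the arms in the response of these 4 genes was therefore not shown.

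Near relatives could share reads with a member, since part of the counts had been divided: the counts of Lyz1 and Itln1 were fractional in 12 of 12 libraries, those of Ang4 in 8, Mptx2 in 5 and Mmp7 in 2. Lyz2, the lysozyme gene of macrophages, is 96.0% identical to Lyz1 over the aligned transcript, and 16.1% of the 50-base stretches of Lyz1 occur in it. It was counted at 2.07% to 4.04% of Lyz1, and how many reads of the pair were divided was not tested. Lyz2 fell in the control arm (-1.31 ± 0.35 log2 units, adjusted p = 0.0330) and was higher in Post 2'-FL than in Post control (1.58 ± 0.36, adjusted p = 0.00395). The latter was not called corrected (0.78, adjusted p = 0.0779). Beside it, the myeloid marker list summed to 135 to 297 CPM in Pre control, 145 to 277 in Pre 2'-FL, 85.2 to 153 in Post control and 120 to 137 in Post 2'-FL. Of its 8 genes 1 was called lower in the control arm, near the 6.33% of all genes. Over both arms 4 of the 8 were called lower and 1 higher (5 and 0 corrected). Of all genes 31.1% and 25.3% were (18.5% and 24.9% corrected).

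Mptx1, the neighbouring pentraxin, is 92.8% identical to Mptx2, shares 18% of its 50-base stretches and was counted at 1.69% to 3.88% of Mptx2. It moved much as Mptx2 did as counted, with -0.49 ± 0.48 log2 units in the control arm (adjusted p = 0.515) and 1.44 ± 0.48 between the Post groups (adjusted p = 0.0285, and 0.912 corrected). Ang5 is 90.5% identical to Ang4 and shares 4.55% of its stretches. It fell by 2.30 ± 0.52 in the control arm (adjusted p = 0.0165). Ang, which shares no 50-base stretch with Ang4, did not pass the test there (-0.19 ± 0.30, adjusted p = 0.686). Mmp10, a stromelysin of the same family as Mmp7 that shares no such stretch, was not called there either (-0.98 ± 0.39, adjusted p = 0.114). Of the 5 relatives tested, 2 were called lower in the control arm, as counted and corrected. Of all genes 6.33% were (5% corrected). Over both arms 2 of the 5 were called lower as counted, where 31.1% of all genes were. Corrected, all 5 were, Ang and Mmp10 among them, where 18.5% of all genes were. In these comparisons 0 of the 5 were called higher.

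The genes whose log2 CPM followed the members most closely were sought among 9683 tested genes with a mean of at least 5 CPM, by Pearson's r over the 12 libraries. Lyz1 was followed most closely by Defa24 (r = 0.99) and Mmp7 by Defa5 (0.98), both alpha-defensin genes, while Defa17, Defa3 and Bambi had the same rounded value for Itln1 (0.99). Mptx2 was followed by Ggh, Sumo2 and Glod4 (0.93, 0.93 and 0.92), none of them a Paneth cell product on the lists used. Corrected, Lyz1 was followed by Lyz2 (0.97), Mmp7 by Lyz2 and Selm (0.96 each), Itln1 by Habp2, Clps and Adi1 (0.97 each) and Mptx2 by Mptx1 and Acer2 (0.83 each). The mean of the 5 members was followed most closely by Defa5 as counted (0.99), while corrected Habp2, Adi1, Defa24, Clps and Mecom all had 0.96.

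Of 13 tested other products ascribed to Paneth cells, 8 were called lower in the control arm and 0 higher, as counted and corrected. The median log2 change of the 13 was -1.11. Mean levels of Reg3a, Reg3b and Reg3g went the other way in this arm, with overlapping groups. They were 109, 3630 and 1640 CPM in Pre control and 206, 3910 and 2280 CPM in Post control. Over all genes 6.33% were called lower in this arm (5% corrected) and 4.42% higher (7.6% corrected). Habp2, a hyaluronan-binding serine protease gene, stood at 17.9 to 35.1 CPM in Pre control and 2.47 to 4.01 CPM in Post control, a log2 change of -2.85 ± 0.44 (adjusted p = 0.00300). In Post 2'-FL it stood at 3.91 to 6.06 CPM, and it was not called between the Post groups (0.51 ± 0.48, adjusted p = 0.415). Of the 13, 5 were called higher with 2'-FL there and 0 lower (2 and 1 corrected). Of all genes 18.8% and 19.3% were (10.3% and 11.4% corrected). Corrected, Reg3b (2.17, adjusted p = 0.0264, edgeR) and Tesc (1.22, adjusted p = 0.0267) were higher and Pnliprp2 was lower (-1.31, adjusted p = 0.0148). Tesc reached at most 4.09 CPM. Pnliprp2 and Clps, a lipase-related protein and colipase, fell by 1.50 ± 0.33 and 1.89 ± 0.38 in the control arm (adjusted p = 0.0149 and 0.0102), and Kit, a receptor tyrosine kinase, by 1.26 ± 0.26 (adjusted p = 0.0117). In the 2'-FL arm 7 of the 13 were called lower and 4 higher (8 and 1 corrected), and over both arms 8 and 2 (9 and 0 corrected), with Reg3a and Reg3b the 2 called higher. Over all genes 30% were called lower and 25.3% higher in the 2'-FL arm (14.8% and 21.1% corrected), and 31.1% and 25.3% over both arms (18.5% and 24.9% corrected), so that 4 of 13 higher is near the share of all genes.

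Of 18 regulators of Paneth cell formation and maturation, 3 were called lower in the control arm and 0 higher (2 and 1 corrected). There 6.33% of all genes were called lower and 4.42% higher (5% and 7.6% corrected). Over both arms 11 of the 18 were called lower and 2 higher, but corrected 4 and 2. The median log2 change of the 18 was -0.71 as counted and -0.14 corrected, against -0.10 and 0.03 over all genes. Over all genes 31.1% were called lower and 25.3% higher over both arms, and corrected 18.5% and 24.9%, so that the corrected count of lower genes is near the share of all genes and that of higher genes under it. Bhlha15, a transcription factor of secretory cell maturation, fell by 2.06 ± 0.29 log2 units over both arms (adjusted p = 9.40e-05) and by 1.56 corrected. Atg5, an autophagy gene needed for normal Paneth cell granules, rose by 1.24 ± 0.16 (adjusted p = 5.42e-05) and by 0.93 corrected. Ephb2 and Fzd5, receptors for ephrins and Wnt ligands, fell by 1.29 ± 0.18 and 0.98 ± 0.14 (adjusted p = 7.80e-05 and 0.000111) but were not called corrected (-0.13 and -0.11).

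Of 7 tested niche signals, 1 was called lower in the control arm and 5 over both arms (1 and 3 corrected), and 0 higher, with a median of -0.79 over both arms and -0.56 corrected. Of all genes 6.33% were called lower in the control arm and 31.1% over both arms (5% and 18.5% corrected), so that 1 of 7 in the control arm is near the share of all genes. Wnt3, the Wnt ligand of Paneth cells, fell by 2.32 ± 0.33 log2 units over both arms (adjusted p = 9.06e-05) and by 2.02 corrected, from 2.78 to 8.98 CPM in the Pre libraries to 0.558 to 2.16 CPM in the Post libraries. Dll1, a Notch ligand, fell by 1.08 ± 0.21 (adjusted p = 0.000638) and Egf by 2.90 ± 0.65 (adjusted p = 0.00195), the latter from levels of at most 3.05 CPM. Dll4, another Notch ligand, fell by 0.79 ± 0.21 (adjusted p = 0.00577) but was not called corrected. Between the Post groups 2 of the 7 were called lower with 2'-FL, as counted and corrected, where 19.3% of all genes were (11.4% corrected). Dll1 differed by -1.27 ± 0.30 log2 units (adjusted p = 0.00514) and -0.76 corrected (adjusted p = 0.0411), and Tgfa, an EGF family ligand, by -1.40 ± 0.31 (adjusted p = 0.00347) and -0.93 corrected (adjusted p = 0.0295). Wnt3 (-0.04 ± 0.54, adjusted p = 0.961) and Egf (-1.12 ± 1.31, adjusted p = 0.522) were not called there.

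Markers of other epithelial cell types, apart from crypt stem cells, gave few calls in the control arm, though some uncalled genes came near the cut. None of 7 goblet, 6 enterocyte, 5 enteroendocrine, 4 tuft and 6 general epithelial genes was called there as counted. Of 6 crypt stem cell genes 3 were called lower (2 corrected), where 6.33% of all genes were (5% corrected). They were Ascl2 (-2.10 ± 0.48 log2 units, adjusted p = 0.0181, edgeR), Lgr5 (-1.75 ± 0.47, adjusted p = 0.0321, not called corrected) and Smoc2 (-0.81 ± 0.22, adjusted p = 0.0343). The called genes, Rnf43 and Olfm4 were lower without overlap, and Axin2 was not. In the corrected fit 1 goblet gene, the mucin gene Muc2, was called lower there (-0.78 ± 0.23, adjusted p = 0.0426, edgeR), with groups that did not overlap. Muc2 had no known transcript length, so its own level was not corrected. Its change as counted was also -0.78 (adjusted p = 0.0526). The enterocyte, enteroendocrine, tuft and general epithelial lists had no call in the corrected fit. Of 10 genes of the secretory granule and endoplasmic reticulum export list, 0 were called in either direction there, as counted and corrected. The epithelial genes summed to 6520 to 9340 CPM in Pre control and 9670 to 10000 CPM in Post control. Single genes of that list went different ways without being called. Epcam was higher in Post control without overlap (0.52 ± 0.25 log2 units, adjusted p = 0.190, edgeR) and Krt19 lower without overlap (-0.44 ± 0.23, adjusted p = 0.212). Among the enterocyte genes Sis was lower (-1.18 ± 0.37, adjusted p = 0.0558, edgeR) and Fabp1 higher (1.59 ± 0.51, adjusted p = 0.0599), each without overlap. Of all genes 17.6% were lower without overlap in this arm and 17.3% higher. In Post 2'-FL the epithelial genes summed to 4870 to 8330 CPM and smooth muscle genes to 1110 to 1330 CPM, against 431 to 672 CPM in Post control. The part of these differences in tissue makeup in the results for the 5 genes was not tested.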

How the data were processed

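RNA from small bowel was made into 12 libraries with a TruSeq kit and sequenced on a HiSeq 2000, per the labels' protocols. The deposited files hold expected counts (estimated, partly fractional raw read counts per gene), not normalised by the authors. Build mm10 and DESeq are named in the submitters' processing notes. The aligner, counting program, annotation and strand setting are not given in the sources used here. Between 11.7% and 15.9% of entries were fractional. Entries of a gene were summed (36186 entries, 35791 genes) and rounded.

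Tests used edgeR 4.0.16 in R 4.3.3: filterByExpr by group (13154 genes kept), TMM scaling, and 1 quasi-likelihood model with a mean per group over 12 libraries (8 residual degrees of freedom, biological coefficient of variation 0.238), with two-sided F tests adjusted by Benjamini-Hochberg over all genes and calls at adjusted p under 0.05. SE was taken as log2 change over the root of F. The labels do not say that libraries came from separate mice, so p-values measure the spread between these libraries only. For the correction, the log2 CPM of each gene (prior count 2), less its mean, was fitted in each library by natural splines (4 degrees of freedom each) on transcript length and GC content from GENCODE M21, known for 12654 of the 13154 genes and for all 5 members, and entered as offsets. Genes without a known length were left uncorrected. The correction can also remove a change shared by short transcripts for another reason. Levels per kb divide CPM by transcript length. Ratios were tested by exact permutation in scipy 1.17.1 and adjusted over 10 pairs. Upstream sequences are from RefSeq (5 of 5 members matched, GRCm38.p6), and transcripts were aligned with Biopython 1.88.

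The members, gene lists, tests and the length correction were chosen with earlier results of these data known. Named genes are the members, their near relatives, up to 4 genes of each list with the smallest p over both arms, and the genes most correlated with a member. Some further list genes are named for their level, direction or call in a single comparison. Of the 10 relatives, 5 were tested, and Ang2, Ang6, Crp and Apcs had 0 counts. On simulated counts with changes of 2 log2 units the pipeline recovered 97% of 100 changed genes in the control arm contrast, and of changes of 1 unit 42%, over 12894 genes. The simulated counts held no length trend and no library set apart from its group. They therefore do not measure recovery where these occur, as they did here.

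Alternatives were other scalings, filters and fits, DESeq2 1.42.0, the correction, the replicate number as a block, and each library left out in turn. Some of the correlated genes are not reported here.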

Additional observations from a re-analysis of the deposited data

Results flagged for a closer look

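The change of Mmp7 differed between the arms by 1.89 log2 units as counted (adjusted p = 0.0477, edgeR's interaction test), which marks it as a difference between groups tested as such. As counted, Mmp7 fell in the control arm in 3 of 3 Post libraries against all Pre control libraries and had no called change in the 2'-FL arm. Corrected, it was called lower in both arms, by -2.09 ± 0.38 in the control arm (adjusted p = 0.00584, edgeR) and -1.17 ± 0.37 in the 2'-FL arm (adjusted p = 0.0234). The difference between the arms was 0.92 corrected (adjusted p = 0.330). As counted this difference passed in 4 of 12 fits with 1 library left out, with a lowest value of 1.37 without Post 2'-FL 1 and a highest of 2.24 without Pre 2'-FL 2. The length and GC terms of Mmp7 were 0.52 to 1.07 in Post 2'-FL and -0.35 to 0.01 in Post control, and their part in the value as counted is removed by the corrected fit only as far as the curve follows it.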

How the results depend on the processing

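Over both arms and in the control arm, 4 genes were called under every setting that kept all libraries. In the 2'-FL arm the 2 calls became 2 (both lower, Ang4 and Itln1) with library totals, 1 with upper quartiles, 0 with epithelial genes as the scale, 1 with only the groups compared in the fit, and 4 corrected. Between the Post groups 4 became 3 with library totals, 5 with epithelial genes, DESeq2 or only the groups compared, and 1 corrected. The 1 call of the interaction became 0 with library totals, upper quartiles, epithelial genes, the correction, or Esp38 and Lars2 left out, and 2 with DESeq2. Scaling to epithelial genes shifted the members' log2 changes by a median of -0.33 in the control arm, 0.09 in the 2'-FL arm and 0.75 between the Post groups, and library totals by 0.02, -0.34 and -0.25. Calls ranged from 0 to 4 in the control arm, 0 to 2 in the 2'-FL arm, 1 to 5 between the Post groups and 0 to 1 in the interaction with 1 library left out, and over both arms were 4 each time, though without Pre 2'-FL 2 these were 3 lower and Mptx2 higher. Corrected as well, an alternative added after seeing the data, they were 4, 2 to 4, 0 to 1 and, over both arms, 4 to 5.

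Directions turned as follows. Mmp7 in the 2'-FL arm was 0.06 with RLE and with DESeq2, 0.08 with epithelial genes and 0.04 with only the groups compared. Ang4 between the Pre groups was -0.01 with RLE and with DESeq2 and -0.03 without a filter. Corrected, Mptx2 was -0.52 in the 2'-FL arm, -0.49 over both arms and -0.06 in the interaction, and Ang4 was -0.24 between the Post groups and in the interaction. With 1 library left out, Mmp7 ranged from -0.54 to 0.35 in the 2'-FL arm and Mptx2 from -0.39 to 0.29 in the control arm. Between the Pre groups Lyz1 ranged from -0.19 to 0.45, Mmp7 from -0.11 to 0.55, Ang4 from -0.27 to 0.40, Itln1 from -0.05 to 0.59 and Mptx2 from -0.36 to 0.63. Apart from the correction, the causes were not tested.

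With the replicate number as a block, 1 gene was called in the 2'-FL arm and 0 in the interaction, Mmp7 in the 2'-FL arm was 0.03 and Ang4 between the Pre groups 0.00. With the block and the correction, 4, 0 (interaction) and 0 (between the Post groups) were called. Mptx2 was then -0.41 in the 2'-FL arm and -0.46 over both arms. Ang4 was -0.23 between the Post groups, -0.03 between the Pre groups and -0.19 in the interaction. The numbers share no stated mouse or batch, and deviations of equal-numbered libraries correlated from -0.23 to 0.42, over 0.1 in 3 of 18 pairs, so the numbers were not taken to pair the libraries. With 3 libraries a group, changes of 1 log2 unit were often missed in simulation.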
